A study of Homo sapiens with 4 samples.

Results

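The 60 histone genes listed for HCCLM3 cells were examined, out of 13036 genes in all. They were the genes with at least 1 protein-coding transcript whose symbol began with HIST1H to HIST4H, H1F, H2AF or H3F3, and they comprised 50 clustered HIST genes and 10 replication-independent variants. HCCLM3 is an established human hepatoma line. In one arm it carried a lentiviral control hairpin (shCtrl) and in the other a lentiviral hairpin against KIAA1429 (shKIAA1429), both in otherwise untreated cells of the same line, and each arm gave 2 RNA-seq libraries. The comparison asked which RNAs change when KIAA1429 is reduced. KIAA1429, listed as VIRMA, is a scaffold of the complex that writes N6-methyladenosine on RNA. A single hairpin stood for the knockdown, and nothing in the sources used here says whether the libraries of an arm came from separate cultures, so the p-values measure only the spread between these libraries, which may be technical.

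Histones package DNA into nucleosomes, with H2A, H2B, H3 and H4 in the core and H1 on the linker DNA. Most histone protein is made in S phase from the clustered genes, whose mRNAs normally have no poly(A) tail and end in a conserved stem-loop that is bound by the stem-loop binding protein SLBP. The variants are mostly transcribed through the cell cycle and typically give polyadenylated mRNAs. How the RNA was selected before library preparation is not given in the sources used here. First-strand synthesis used random hexamers, so a missing tail was no bar to priming.

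The clustered genes lay in 4 groups. In GRCh37, 35 of them spanned chr6:26017313-27861621 (HIST1), 12 spanned chr1:149400132-149859466 (HIST2), 2 spanned chr1:228644680-228648171 (HIST3) and HIST4H4 lay alone at chr12:14923489-14924065. The histone stem-loop, matched by a degenerate pattern of 16 bases, was searched on the coding strand in the 150 bases after the stop codon. It was found in 46 of 47 clustered genes that could be searched and in 1 of 10 variants, H2AFX. Over 19701 coding genes of the GENCODE annotation, 70 (0.355%) held it, and 7 held it on the opposite strand. The clustered exception was the HIST1H3D entry ENSG00000282988, a longer model (chr6:26196982-26199521, minus strand). It overlaps the other HIST1H3D gene and HIST1H2AD on the same strand. Of its 507 coding bases without the stop codon, a run of 386 is shared with HIST1H2AD. HIST1H2BF, HIST1H2BG and HIST2H2AA4 were not searched. The 47 matches began 24 to 67 bases after the stop codon, with a median of 36. They took 8 forms, and 1 member of each form is shown here on the coding strand with 5 bases on either side, because these letters separate the clustered genes from the other variants and single out H2AFX. Capitals mark the 16 letters of the motif.
HIST1H2AC: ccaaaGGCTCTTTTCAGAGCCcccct
HIST4H4: caaaaGGCCCTTTTCAGGGCCcccaa
HIST1H1A: ccaacGGCTCTTTTAAGAGCCaccta
HIST2H4A: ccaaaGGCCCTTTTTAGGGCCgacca
HIST2H2AC: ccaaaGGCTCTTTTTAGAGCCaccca
HIST1H3E: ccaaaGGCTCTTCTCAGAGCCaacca
HIST1H2AG: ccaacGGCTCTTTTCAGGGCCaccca
H2AFX: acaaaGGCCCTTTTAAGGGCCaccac
The form of HIST1H2AC (chr6:26124897-26124912, plus strand) was the commonest, in 28 members. That of HIST4H4 (chr12:14923658-14923673, minus strand) was held by 7 H4 genes, that of HIST1H1A (chr6:26017265-26017280, minus strand) by 6 members and that of HIST2H4A (chr1:149804596-149804611, plus strand) by 2. HIST2H2AC (chr1:149858941-149858956, plus strand), HIST1H3E (chr6:26225824-26225839, plus strand), HIST1H2AG (chr6:27101294-27101309, plus strand) and H2AFX (chr11:118965608-118965623, minus strand) each had a form of their own. In the same window the letters AATAAA, the usual poly(A) signal, occurred in 3 of the clustered genes searched and in 1 of the variants, against 14% of coding genes. A signal more than 150 bases after the stop codon was not seen by this search. Some variant transcripts run far beyond it, such as one of H3F3B with 2705 exonic and 411 coding bases.

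Values are FPKM, fragments corrected for transcript length and for the size of each library. Comparisons of level between genes depend on the transcript models used, whose lengths were not set in a uniform way. A gene's value is the sum of its listed protein-coding transcripts. Pairs of values give library 1 and then library 2 of the arm. For 23 of the 57 clustered transcripts the model in the files spanned exactly the coding sequence, so the stem-loop letters lay outside the length that was used. Other models were long, such as that of HIST2H3A, which spanned 1656 bases against 518 exonic bases in the GENCODE annotation. Log2 fold changes compare shKIAA1429 with shCtrl after adding 1 FPKM to each value, which shrinks the change of genes with low levels, and were tested with limma over the 11657 genes with at least 1 FPKM in at least 2 libraries. Of the 60 histone genes, 55 passed that filter, 45 clustered and all 10 variants. For a call, a gene had to reach an adjusted p-value under 0.05 together with a change of more than 1 on the log2 scale. The number of reads behind a value is unknown.

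VIRMA itself was at 9.37 and 14.1 FPKM in shCtrl and 6.90 and 8.52 in shKIAA1429. Both knockdown libraries were below both controls. Its log2 fold change was -0.53 (SE 0.24, 95% interval -1.15 to 0.09) and did not pass the test (limma, adjusted p = 0.918; exact permutation test, two-sided p = 0.333, the smallest that 2 against 2 libraries allow). The cell identity was checked against marker genes. Of 3 epithelial markers, the keratins KRT8 (1019 to 1176 FPKM) and KRT18 (971 to 1073 FPKM) were high in every library, and EPCAM was not listed. Of 8 hepatocyte markers only SERPINA1 was listed, at 3.34 to 5.63 FPKM, and ALB, AFP, APOA1, APOB, TTR, FGB and TF were not listed. Of 3 leukocyte markers only CD14 was listed (2.68 to 4.12 FPKM), of 3 fibroblast markers COL1A1 (3.54 to 6.76 FPKM) and DCN (0.120 to 1.06 FPKM), and of 3 endothelial markers none.

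None of the 55 histone genes tested passed both thresholds, as was the case for all 11657 genes, of which 0% were called. The smallest adjusted p-value was 0.616 among the histone genes and 0.238 among all genes (limma). At an unadjusted p under 0.05, 1 histone gene was found, against 656 genes (5.63%) overall. The fold changes were small and close to those of other genes. The median log2 fold change was -0.02 for the 45 clustered genes and -0.03 for the 10 variants, beside -0.01 for all genes. It lay within 0.3 of 0 for 52 of the 55 histone genes, against 80% of all genes. The 95% interval stayed within a 2-fold change in either direction for 50 of 55, against 84.5% of all genes. The 5 whose interval reached further were HIST1H1A, HIST1H3A, HIST1H4D, HIST4H4 and H2AFX. Both shKIAA1429 libraries lay above both shCtrl libraries for 3 histone genes, against 16.9% of all genes, and below them for 5, against 16.7% of all genes.

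**Figure D1:**
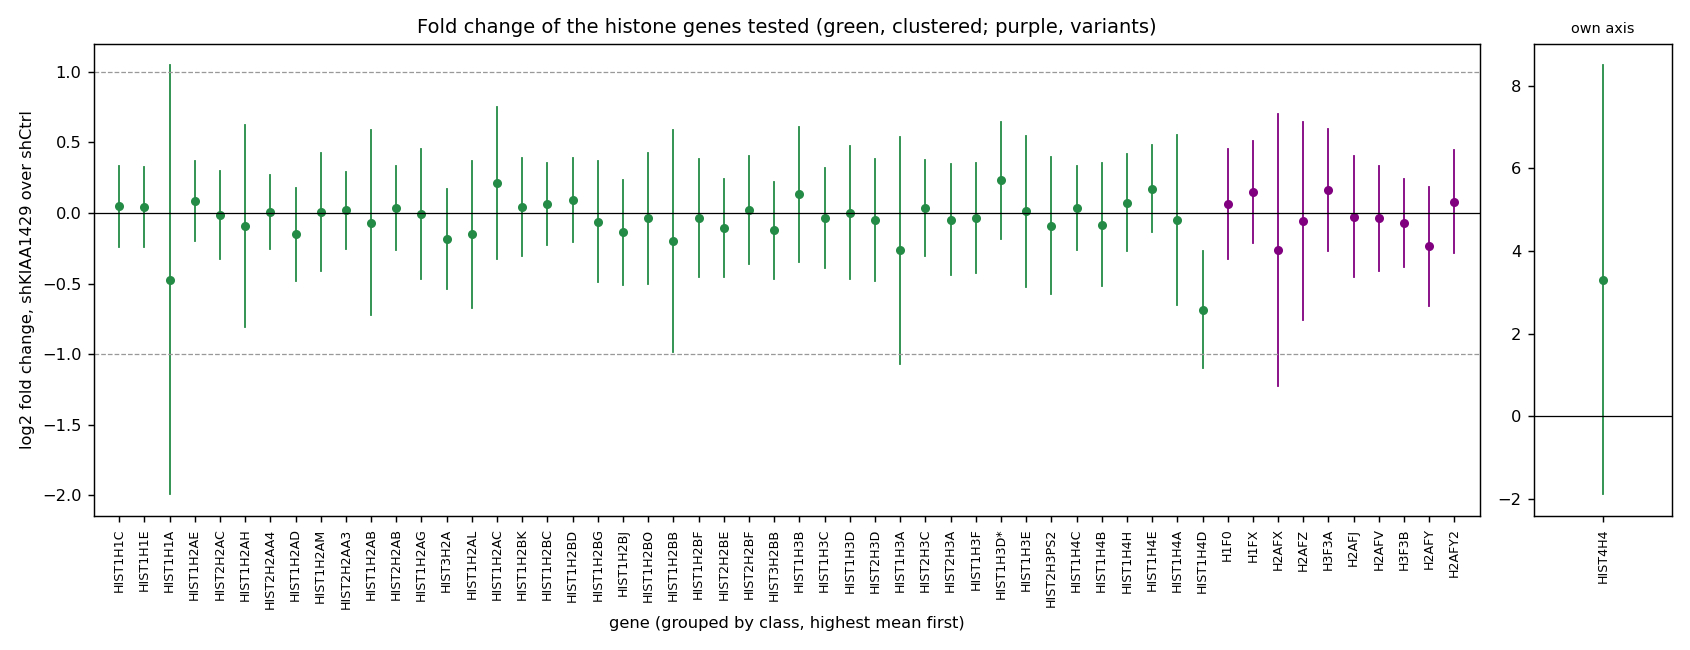
Log2 fold change of shKIAA1429 over shCtrl (vertical axis, log2(FPKM + 1) scale) for the 55 histone genes tested, with 95% limma intervals as lines, clustered genes in green and variants in purple. HIST4H4 has an axis of its own at right, HIST1H3D* is the longer HIST1H3D entry, and nearly all points lie within 0.3 of 0.

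The levels spread far more between genes than between arms. Clustered genes ranged in mean level from 0.499 to 877 FPKM with a median of 204, and 34 of 50 exceeded 100 FPKM. The variants ranged from 15.9 to 177 FPKM with a median of 65.1, and 2 of 10, H1F0 and H1FX, exceeded 100 FPKM. Over all genes tested the median was 7.76 FPKM and 4.07% exceeded 100 FPKM.

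**Figure D2:**
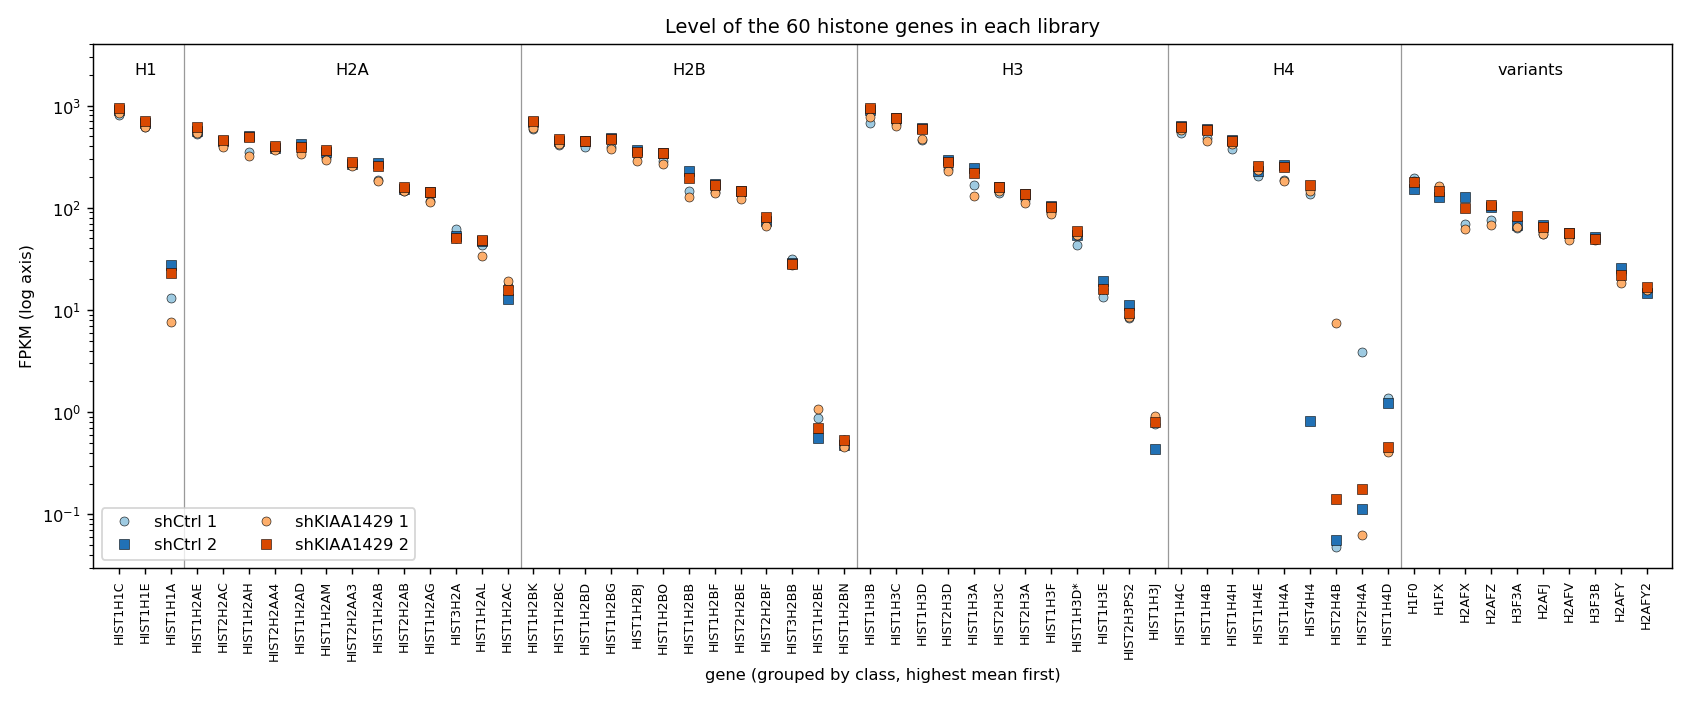
FPKM (vertical log axis) of each of the 60 histone genes in the 4 libraries, grouped by class and ordered by mean; circles are library 1 and squares library 2 of shCtrl (blue) and shKIAA1429 (orange). The colours overlap for most genes, squares often sit above circles, and HIST4H4, HIST2H4A and HIST2H4B each have a library far from the rest.

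Summed over genes, the clustered genes reached 12092 and 14088 FPKM in shCtrl and 12076 and 14322 in shKIAA1429. That was 3.27% and 3.76% of all FPKM in the control libraries and 3.09% and 3.75% in the knockdown libraries. The variants summed to 748 and 795 FPKM in shCtrl and to 725 and 821 in shKIAA1429. In each arm library 2 had the larger sum of both kinds, and the arms overlapped. The clustered genes held 16.2 and 17.7 times the FPKM of the variants in shCtrl and 16.7 and 17.4 times in shKIAA1429. The size of these ratios depends on the model lengths used and on how the RNA was selected, which is not given. The mean log2 ratio differed between the arms by 0.01, less than the within-arm SD of 0.0742. With H2AFX counted among the clustered genes, a grouping chosen after its sequence was seen, the ratios were 17.9 and 21.3 in shCtrl and 18.3 and 19.98 in shKIAA1429. The difference in log2 was then -0.03.

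**Figure D3:**
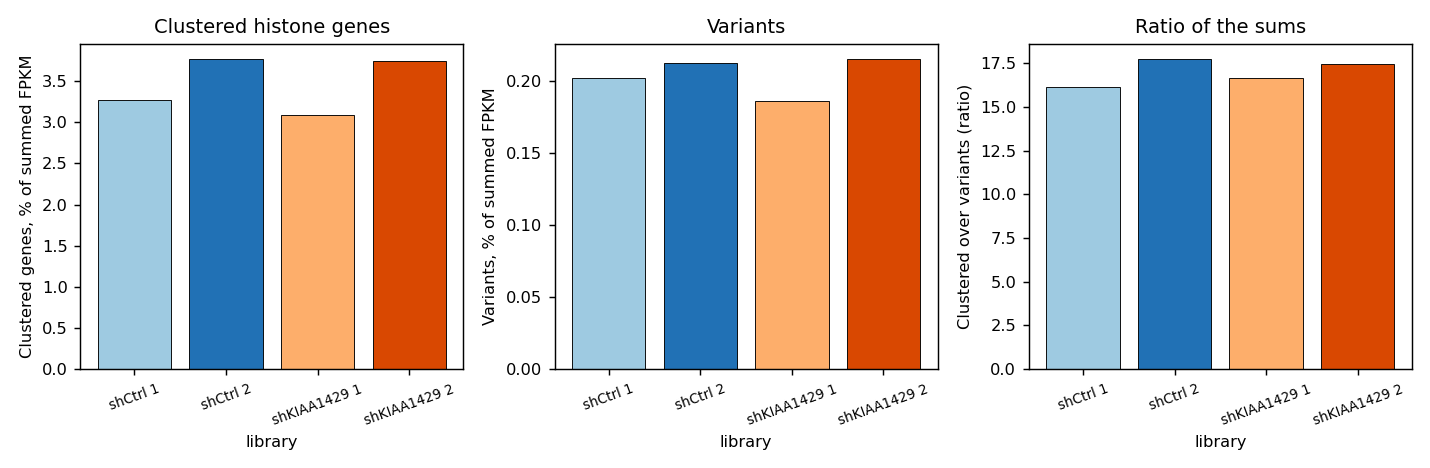
Share of the summed FPKM held by the clustered histone genes (left, %) and by the variants (middle, %), and the ratio of both sums (right), in each of the 4 libraries. In both arms the bar of library 2 is higher, and the ratio stays between 16.2 and 17.7.

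By the protein named in the symbol, H2A genes had the largest sum and H1 genes the smallest. The longer HIST1H3D entry was counted with H3 by its symbol, although most of its coding bases are shared with HIST1H2AD. The 3 H1 genes summed to 1525 ± 119.9 FPKM in shCtrl and 1569 ± 135 in shKIAA1429 (SD, n = 2). The 13 H2A genes summed to 3403 ± 302 and 3363 ± 443 FPKM. These sums overlapped between the arms. The 13 H2B genes summed to 3176 ± 358 and 3149 ± 368 FPKM, the 12 H3 genes to 2939 ± 467 and 2959 ± 446 FPKM, and the 9 H4 genes to 2046 ± 164 and 2159 ± 197 FPKM. In each class the difference between the arms was smaller than the SD within an arm.

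The H1 genes encode the linker histones. HIST1H1C was the most abundant histone gene, at 812 and 914 FPKM in shCtrl and 844 and 939.8 in shKIAA1429. Among the H1 genes HIST1H1E came next, at 616 and 669 FPKM in shCtrl and 622 and 702 in shKIAA1429. In both, library 2 exceeded library 1 in each arm and the arms overlapped. HIST1H1A was far lower and far more variable, at 12.98 and 27.4 FPKM in shCtrl and 7.66 and 22.8 in shKIAA1429. Library 2 of HIST1H1A was 2.11 times library 1 in shCtrl and 2.98 times in shKIAA1429. Its log2 fold change of -0.47 (SE 0.59) spanned an interval from -1.99 to 1.04, and without shCtrl library 2 or without shKIAA1429 library 1 it turned positive (0.04 and 0.26).

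The H2A genes pair with H2B in the nucleosome core and 10 of the 13 had means over 100 FPKM. HIST1H2AE led them at 524 and 564 FPKM in shCtrl and 543 and 612 in shKIAA1429. HIST2H2AC was at 414 and 446 FPKM in shCtrl and 393 and 458 in shKIAA1429, and HIST1H2AH at 349 and 504 FPKM in shCtrl and 318 and 488 in shKIAA1429. Library 2 was the higher one in each arm for these 3 genes. HIST2H2AA4 (386 and 384 FPKM in shCtrl and 370.4 and 405 in shKIAA1429) and HIST2H2AA3 (263 and 265 FPKM in shCtrl and 257 and 279 in shKIAA1429), a duplicated pair, were each nearly level in all libraries. Their models in the files spanned 549 and 974 bases, and the part of model length in the difference between them was not tested. HIST1H2AD was at 381 and 424 FPKM in shCtrl and 334 and 392 in shKIAA1429 and HIST1H2AM at 304 and 350.5 FPKM in shCtrl and 291 and 371 in shKIAA1429. In neither did the arms separate. HIST1H2AB was at 187 and 272 FPKM in shCtrl and 181 and 255 in shKIAA1429, with library 2 at 1.45 and 1.41 times library 1. HIST2H2AB stood at 144 and 153 FPKM in shCtrl and 146 and 159 in shKIAA1429 and HIST1H2AG at 115 and 141 FPKM in shCtrl and 113 and 142 in shKIAA1429. HIST1H2AL was lower, at 43.5 and 46.97 FPKM in shCtrl and 34.1 and 48.3 in shKIAA1429. The arms overlapped for all 3. HIST3H2A, from the small chromosome 1 cluster, was at 61.9 and 53.2 FPKM in shCtrl and 50.2 and 50.7 in shKIAA1429, with both knockdown libraries below both controls (log2 fold change -0.18, SE 0.14, limma adjusted p = 0.969). HIST1H2AC was the lowest H2A gene, at 17.3 and 12.7 FPKM in shCtrl and 19.3 and 15.6 in shKIAA1429. In HIST1H2AC library 2 was the lower one in both arms, the reverse of most clustered genes, and the log2 fold change was 0.21 (SE 0.21).

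The H2B genes ranged in mean level from 0.499 to 648 FPKM. HIST1H2BK was highest at 586 and 691 FPKM in shCtrl and 608 and 706 in shKIAA1429, and HIST1H2BC was at 409 and 447 FPKM in shCtrl and 422 and 474 in shKIAA1429. HIST1H2BD was at 389.8 and 452 FPKM in shCtrl and 451 and 445 in shKIAA1429 and HIST1H2BG at 396 and 482 FPKM in shCtrl and 374 and 469 in shKIAA1429. The arms overlapped in these 4 genes. HIST1H2BJ was at 329 and 365 FPKM in shCtrl and 284 and 350.0 in shKIAA1429, HIST1H2BO at 283 and 343 FPKM in shCtrl and 266 and 347 in shKIAA1429. HIST1H2BB was at 146 and 227 FPKM in shCtrl and 128 and 197 in shKIAA1429, so that library 2 was 1.56 and 1.54 times library 1. HIST1H2BF was at 142 and 171 FPKM in shCtrl and 139 and 167 in shKIAA1429 and HIST2H2BE at 139.7 and 146 FPKM in shCtrl and 122 and 145 in shKIAA1429. HIST2H2BF was at 69.3 and 74.9 FPKM in shCtrl and 66.6 and 80.4 in shKIAA1429. All 3 overlapped between the arms. HIST3H2BB was at 31.8 and 28.9 FPKM in shCtrl and 27.5 and 28.04 in shKIAA1429, with both knockdown libraries below both controls (log2 fold change -0.12, SE 0.13, limma adjusted p = 0.987), as for its neighbour HIST3H2A. HIST1H2BE and HIST1H2BN had mean levels under 1 FPKM and were not tested.

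Among the H3 genes HIST1H3B was the most abundant, at 673 and 897 FPKM in shCtrl and 766 and 948 in shKIAA1429. HIST1H3C was at 654 and 757 FPKM in shCtrl and 628 and 751 in shKIAA1429. The usual HIST1H3D gene, ENSG00000197409, was at 464 and 596 FPKM in shCtrl and 467 and 593 in shKIAA1429. In all 3 the libraries numbered 2 stood above those numbered 1, and the arms overlapped. The longer HIST1H3D entry was at 43.4 and 53.9 FPKM in shCtrl and 54.2 and 59.8 in shKIAA1429, so that both knockdown libraries lay above both controls (limma adjusted p = 0.960). Its model overlaps the usual HIST1H3D gene and HIST1H2AD on the chromosome, so its reads cannot be told from theirs with certainty. HIST2H3D was at 237 and 291 FPKM in shCtrl and 228 and 282 in shKIAA1429. HIST1H3A was at 168 and 243 FPKM in shCtrl and 129.5 and 218 in shKIAA1429, where library 2 was 1.44 and 1.68 times library 1. Its log2 fold change was -0.27 (SE 0.31) and became positive (0.11) without shKIAA1429 library 1. HIST2H3C (138 and 160.2 FPKM in shCtrl and 146 and 159 in shKIAA1429) and HIST2H3A (119 and 136 FPKM in shCtrl and 112 and 135 in shKIAA1429) have identical coding sequences, so reads from one cannot be assigned to it with certainty. HIST1H3F was at 89.7 and 105 FPKM in shCtrl and 87.3 and 102 in shKIAA1429. Lower down, HIST1H3E was at 13.3 and 19.1 FPKM in shCtrl and 16.1 and 15.9 in shKIAA1429 and HIST2H3PS2, once annotated as a pseudogene, at 8.25 and 11.1 FPKM in shCtrl and 8.55 and 9.32 in shKIAA1429. HIST1H3J had a mean under 1 FPKM and was not tested. The other H3 genes tested overlapped between the arms.

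H4 was encoded by 9 listed genes, which make the same core protein. HIST1H4C was at 538 and 627 FPKM in shCtrl and 581 and 611 in shKIAA1429, HIST1H4B at 486 and 586 FPKM in shCtrl and 446 and 570.3 in shKIAA1429. HIST1H4H was at 375 and 458 FPKM in shCtrl and 424 and 448 in shKIAA1429. The arms overlapped in these 3. HIST1H4E was at 203 and 229 FPKM in shCtrl and 234 and 253 in shKIAA1429, with both knockdown libraries above both controls and a log2 fold change of 0.17 (SE 0.12, limma adjusted p = 0.960). HIST1H4A was at 186 and 259.7 FPKM in shCtrl and 182 and 248 in shKIAA1429 and followed the libraries numbered 2. HIST4H4 was at 136 and 0.826 FPKM in shCtrl and 144 and 167 in shKIAA1429, so that 1 control library was near 0 while the other resembled the knockdown libraries. The log2 fold change of HIST4H4, 3.30 (SE 2.001, 95% interval from -1.88 to 8.49, limma adjusted p = 0.955), was the highest of all genes tested and rested on that library. Without shCtrl library 2 it was 0.19. Without shCtrl library 1 it was 6.42 and HIST4H4 was the only gene called (limma adjusted p = 0.0225, from a range of 0.0225 to 0.9995 over the alternatives).

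The low H4 genes were also uneven. HIST1H4D was at 1.37 and 1.24 FPKM in shCtrl and 0.405 and 0.459 in shKIAA1429, low in every library and lower in both knockdown libraries. Its log2 fold change of -0.68 (SE 0.16) had an unadjusted p of 0.00834 and a limma adjusted p of 0.616. It was -1.40 with a pseudocount of 0.1 and -1.09 with an equal sum of FPKM in every library, and the adjusted p stayed over 0.05 in both (0.728 and 0.506). HIST1H4D had entered the test only through its 2 control libraries, which alone reached 1 FPKM, so a difference in that direction was favoured by the filter. HIST2H4A was at 3.91 and 0.112 FPKM in shCtrl and 0.0622 and 0.179 in shKIAA1429 and HIST2H4B at 0.0479 and 0.0563 FPKM in shCtrl and 7.39 and 0.140 in shKIAA1429. Each had a single library well above the rest, and their coding sequences are identical. Their sum was 3.96 and 0.168 FPKM in shCtrl and 7.45 and 0.319 in shKIAA1429, higher in the libraries numbered 1 of both arms. Neither was tested.

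Most clustered genes differed in the same way between the libraries of each arm. Both libraries numbered 2 lay above both numbered 1 for 35 of the 45 clustered genes tested (77.8%), for 5 of 10 variants and for 25.1% of all genes. Both lay below for 1 clustered gene, HIST1H2AC, for the variants H1F0 and H1FX, and for 22% of all genes. The labels do not say what the numbers mark, so no test was made of this difference. The median of library 2 minus library 1 on the log2 scale was 0.21 in shCtrl and 0.23 in shKIAA1429 for the clustered genes, beside 0.00059 and 0.02 for all genes. It was 0.25 and 0.26 in the HIST1 cluster and 0.11 and 0.17 in the HIST2 cluster. In the HIST3 cluster it was -0.17 and 0.02.

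A list of 20 S phase genes moved between the same libraries. Both libraries numbered 2 were above both numbered 1 for 18 of 20, and the medians of library 2 minus library 1 were 0.68 in shCtrl and 1.07 in shKIAA1429. PCNA, the sliding clamp of DNA replication, was at 34.9 and 81.3 FPKM in shCtrl and 25.7 and 74.4 in shKIAA1429. CDC6, a licensing factor, was at 5.07 and 12.7 FPKM in shCtrl and 2.84 and 9.66 in shKIAA1429 and the cyclin genes CCNE1 and CCNE2 at 2.67 and 6.96 FPKM in shCtrl and 2.64 and 7.01 in shKIAA1429 and at 0 and 2.12 FPKM in shCtrl and 0.446 and 1.99 in shKIAA1429. E2F1, a transcription factor of the G1 to S transition, was at 12.2 and 22.1 FPKM in shCtrl and 6.89 and 18.2 in shKIAA1429. The clustered median thus differed between libraries in the direction of the S phase median and by less. The part of S phase genes in the histone values was not tested, and a smaller share of cells in S phase and less histone RNA per cell cannot be told apart in bulk RNA. Between the arms, none of the 20 was called. Their median log2 fold change was -0.26, with 18 lower, against 51.9% of all genes, and 2 higher. Of the 18, CCNE1 had a log2 fold change of only -4.56e-06. Among the 20, CDC6 had -0.51 (SE 0.62), E2F1 -0.51 and RRM1, a subunit of ribonucleotide reductase, 0.28. MCM7, a helicase subunit, was at 74.1 and 62.4 FPKM in shCtrl and 39.2 and 46.6 in shKIAA1429 and had both knockdown libraries below both controls (log2 fold change -0.66, SE 0.16, limma adjusted p = 0.650).

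**Figure D4:**
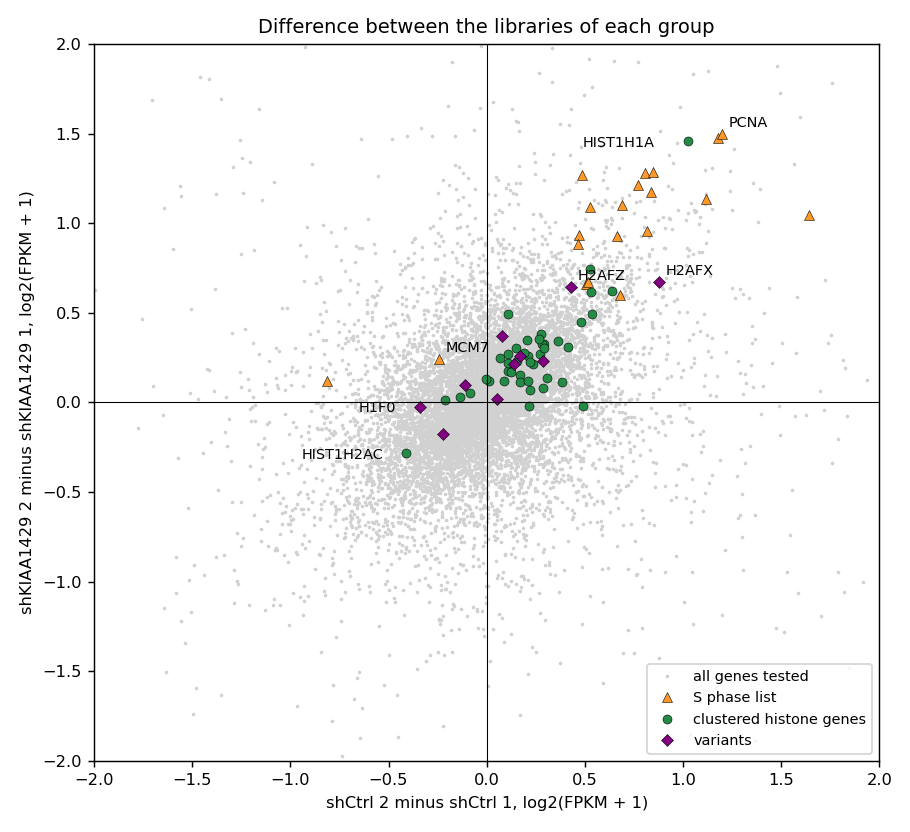
Difference of library 2 minus library 1 on the log2(FPKM + 1) scale in shCtrl (horizontal) and shKIAA1429 (vertical) for all genes tested (grey), the S phase list (orange triangles), clustered histone genes (green circles) and variants (purple diamonds). Most clustered genes fall at upper right between the bulk of genes and the S phase list, HIST1H2AC falls in the lower left, and HIST4H4 (-6.23 in shCtrl) and some grey points lie outside the axes.

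The neighbouring H2A and H2B genes are often divergent, with starts a short distance apart. Of 8 such pairs listed, with 219 to 331 bases between the models, levels within a pair were near equal for some and far apart for others. The HIST1H2AM to HIST1H2BO ratio was 1.07 and 1.02 in shCtrl and 1.09 and 1.07 in shKIAA1429. The HIST2H2AC to HIST2H2BE ratio was 2.96 and 3.04 in shCtrl and 3.24 and 3.17 in shKIAA1429. HIST1H2AC reached only 0.0422 and 0.0285 of HIST1H2BC in shCtrl and 0.0457 and 0.0330 in shKIAA1429. HIST1H2AC and HIST1H2BC thus lay side by side while differing in FPKM and in which library was higher. In the files the models of HIST1H2AC spanned 14958 and 14882 bases and those of HIST1H2BC 9038 and 571. The part of these models in the difference in FPKM was not tested.

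Transcript forms were examined because a few clustered genes have a spliced transcript besides the short one. These transcripts were chosen after their values were seen. Of 7 clustered genes with more than 1 listed coding transcript, 6 had a 1-exon and a 2-exon form by the GENCODE annotation. The exon structures behind the FPKM were not available. In the files the form labelled 1-exon spanned 14958 bases in HIST1H2AC and 1954 in HIST2H2BF, against 519 and 492 exonic bases annotated. For these genes the label may not hold for the values. In HIST1H2AC the 2-exon form of 1462 bases led, at 14.1 and 10.4 FPKM in shCtrl and 14.7 and 12.2 in shKIAA1429, against 3.12 and 2.32, and 4.55 and 3.39, for the 1-exon form. Both forms were lower in library 2 of each arm. In HIST1H2BD the 1-exon form stood at 377 and 442 FPKM in shCtrl and 432 and 429.5 in shKIAA1429. Its 2-exon form of 789 bases stood at 13.1 and 9.78, and at 19.7 and 14.99 FPKM, lower in library 2 of each arm and higher in both knockdown libraries than in both controls (limma on transcripts, adjusted p = 0.899). HIST1H2BC differed, since its 2-exon form of 659 bases held the gene, at 396 and 431 FPKM in shCtrl and 407 and 457 in shKIAA1429, and was higher in library 2. In HIST1H2BJ the 2-exon form (20.7 to 27.6 FPKM) was also higher in both libraries numbered 2. No fixed direction of the 2-exon forms between libraries was seen.

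**Figure D5:**
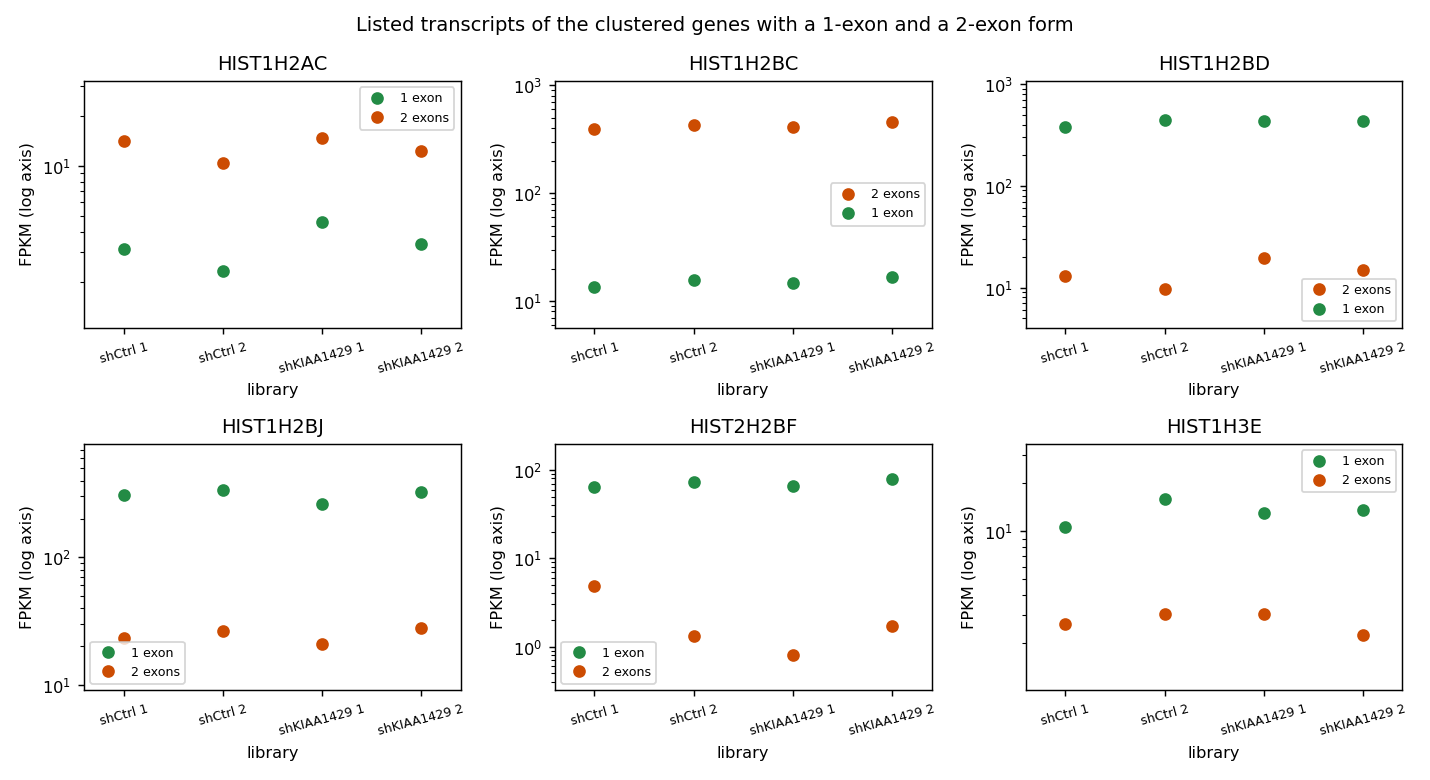
FPKM (log axis) of the 1-exon (green) and 2-exon (brown) listed transcripts of 6 clustered genes in the 4 libraries, with exons as counted in the GENCODE annotation. In the files the models labelled 1-exon span 14958 bases in HIST1H2AC and 1954 in HIST2H2BF, so the label may not hold there. The 2-exon forms of HIST1H2AC and HIST1H2BD are lower in library 2 than in library 1 of each arm, while those of HIST1H2BC and HIST1H2BJ are higher.

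Most variants can replace core or linker histones outside S phase, and they differ from each other in role. H1F0, a linker histone of slowly dividing and differentiated cells, was at 194 and 153 FPKM in shCtrl and 182 and 178 in shKIAA1429. H1FX, another linker variant, was at 149.97 and 128 FPKM in shCtrl and 163 and 144 in shKIAA1429, with a log2 fold change of 0.15 (SE 0.14). Library 2 was the lower one in each arm for both, and the arms overlapped. H2AFX, which is phosphorylated at DNA double-strand breaks, was at 69.2 and 128 FPKM in shCtrl and 61.8 and 98.9 in shKIAA1429. H2AFX, the variant with the stem-loop letters, had the largest difference between libraries among the variants, with library 2 at 1.85 times library 1 in shCtrl and 1.602 times in shKIAA1429. Its log2 fold change was -0.26 (SE 0.37) and turned positive without shCtrl library 2 (0.17) or without shKIAA1429 library 1 (0.07). H2AFZ, one of the genes for H2A.Z at promoters, was at 75.9 and 102 FPKM in shCtrl and 67.6 and 106 in shKIAA1429. Its companion H2AFV was at 51.3 and 56.6 FPKM in shCtrl and 48.7 and 56.5 in shKIAA1429, and H2AFJ at 55.1 and 67.4 FPKM in shCtrl and 55.1 and 64.8 in shKIAA1429. These were higher in both libraries numbered 2, and the arms overlapped.

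The macroH2A gene H2AFY, whose protein carries a large non-histone domain, was at 22.6 and 25.5 FPKM in shCtrl and 18.4 and 22.2 in shKIAA1429. Both knockdown libraries of H2AFY lay below both controls, the nearest at 22.2 and 22.6 FPKM. The log2 fold change of -0.24 (SE 0.16, interval -0.66 to 0.18) did not pass the test (limma adjusted p = 0.960). With the noncoding transcripts of H2AFY added, the log2 fold change was -0.33. Its paralog H2AFY2 was at 16.05 and 14.8 FPKM in shCtrl and 15.8 and 16.9 in shKIAA1429 with overlapping arms. H3F3A and H3F3B encode the same replacement H3. H3F3A was at 63.7 and 67.2 FPKM in shCtrl and 64.4 and 83.4 in shKIAA1429 and H3F3B at 50.3 and 52.2 FPKM in shCtrl and 48.4 and 49.1 in shKIAA1429. H3F3B was lower in both knockdown libraries by a small margin, while H3F3A overlapped and had a log2 fold change of 0.16 (SE 0.17) that was -0.02 without shKIAA1429 library 2. The leading transcript of H3F3A held 58.4% to 81.7% of the gene across libraries, the widest range among the variants. No variant shared more than 54 coding bases in a row with another histone gene, while 15 of 47 clustered genes compared shared at least 100, so the assignment of reads is less certain for the clustered genes. Among the 15 were HIST1H2AD and both HIST1H3D entries, the longer of which overlaps the other entry and HIST1H2AD on the chromosome.

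Genes that act on histone mRNA did not pass the test either. Of 16 genes for transcription, 3′ end processing and decay of histone mRNA, all were tested and 0 were called. Their median log2 fold change was 0.01, with 8 higher and 8 lower. None had an unadjusted p under 0.05, against 5.63% of all genes. SLBP, which binds the stem-loop, was at 14.8 and 22.2 FPKM in shCtrl and 10.9 and 20.1 in shKIAA1429 and had a log2 fold change of -0.27 (SE 0.34). SLBP was higher in both libraries numbered 2, in the direction of the clustered genes. NPAT (1.92 and 2.16 FPKM in shCtrl and 1.74 and 2.65 in shKIAA1429) and CASP8AP2 (1.73 and 1.41 FPKM in shCtrl and 1.21 and 2.20 in shKIAA1429), which act in histone gene transcription, had log2 fold changes of 0.06 and 0.05. ZNF473, a component of the U7 snRNP machinery, had the highest log2 fold change of the list (0.75, SE 0.48) and was low in shCtrl library 1 alone (1.45 and 5.34 FPKM in shCtrl and 4.88 and 6.51 in shKIAA1429). Without that library its log2 fold change was 0.07, and without shCtrl library 2 it was 1.44. ZCCHC6, a uridylyltransferase in histone mRNA decay, was at 1.22 and 1.08 FPKM in shCtrl and 2.25 and 1.17 in shKIAA1429, and the cleavage factor CSTF2 at 12.9 and 14.6 FPKM in shCtrl and 14.5 and 19.8 in shKIAA1429. At the other end, MIF4GD, which links SLBP to translation, was at 12.5 and 8.58 FPKM in shCtrl and 8.17 and 7.28 in shKIAA1429 (log2 fold change -0.38, SE 0.21) and the cleavage factor CPSF2 at 5.47 and 5.64 FPKM in shCtrl and 5.27 and 5.001 in shKIAA1429. Both were lower in the 2 knockdown libraries.

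Of 23 histone chaperones and exchange factors, 0 were called and 1 had an unadjusted p under 0.05, against 5.63% of all genes. The median log2 fold change was 0.01, with 12 higher and 11 lower. VPS72, a subunit of the complexes that exchange H2A.Z into chromatin, was at 15.7 and 23.03 FPKM in shCtrl and 37.8 and 37.02 in shKIAA1429. Both knockdown libraries of VPS72 exceeded both controls (log2 fold change 0.94, SE 0.21, unadjusted p = 0.00700, limma adjusted p = 0.587). HJURP, the chaperone of the centromeric H3, was at 16.3 and 10.01 FPKM in shCtrl and 15.5 and 21.7 in shKIAA1429, and DAXX, a chaperone of the replacement H3, at 22.5 and 16.8 FPKM in shCtrl and 24.003 and 23.1 in shKIAA1429. Their log2 fold changes were 0.49 and 0.26, and 0.16 and 0.06 without shCtrl library 2. The lowest were CHAF1A, the large subunit of the replication-coupled assembly factor, at 8.12 and 15.995 FPKM in shCtrl and 6.003 and 13.4 in shKIAA1429 (-0.31), NAP1L4, an H2A and H2B chaperone, at 26.4 and 27.98 FPKM in shCtrl and 20.6 and 24.4 in shKIAA1429 (-0.27), and ASF1B, an H3 and H4 chaperone of dividing cells, at 10.8 and 21.5 FPKM in shCtrl and 9.11 and 19.6 in shKIAA1429 (-0.17). CHAF1A and ASF1B were higher in both libraries numbered 2, as most clustered genes were, and their log2 fold changes turned positive without shCtrl library 2 (0.14 and 0.29).

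Promoters were compared by their letters, in the RefSeq windows from 250 bases before to 50 bases after each start (GRCh38.p14), for the 46 of 60 members that matched. The letters were searched on both strands. Windows of divergent H2A and H2B neighbours can overlap, so the same site may be counted for both genes. CCAAT occurred in 31 of 37 clustered promoters (83.8%), against 34.6% of all promoters, and in every H1, H2A, H2B and H3 promoter searched but in 0 of 6 H4 promoters. The octamer, a motif known from H2A and H2B promoters, occurred in 9 of 10 H2A and 8 of 11 H2B promoters, against 1.77% of all promoters. TATAAA occurred in 25 of 37 clustered promoters (67.6%), against 11.5%. Among 9 variant promoters, CCAAT occurred in 6, TATAAA in 4 and the octamer in 1, that of H3F3B.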

How the data were processed

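RNA from HCCLM3 cells with shCtrl or shKIAA1429 was sequenced in 2 libraries per group, and group and replicate number were taken from the titles. The authors deposited FPKM values per annotated transcript, per the file headers. By the methods, RNA was reverse transcribed from random hexamers, aligned with TopHat and counted with HTSeq for DESeq, and the submitters' processing notes name Bowtie2 2.1.0 and hg19. The tool that made the FPKM, the strand setting and the treatment of reads that map to several places are not given in the sources used here. FPKM keep no depth, so no counting interval could be given, and the precision is that of 2 libraries per group.

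The histone genes were chosen by name, and they and the gene lists were chosen with earlier results of these data known. FPKM of protein-coding transcripts were summed per histone gene, without the 9 noncoding transcripts that had a matching name. The 2 genes with only such transcripts were kept among the other genes. For other genes all their listed transcripts were summed, and 38510 transcripts were listed in all. Genes with at least 1 FPKM in at least 2 libraries were tested with limma 3.58.1 in R 4.3.3 on log2(FPKM + 1) (eBayes with trend, two-sided, 2.87 prior and 2 residual degrees of freedom), with Benjamini-Hochberg adjustment over all 11657. The test was checked on simulated data. Every variant, and every clustered gene with a mean of at least 5 FPKM or a group difference without overlap and a log2 fold change of at least 0.5, was to be given with its values. From each list the 3 highest and 3 lowest fold changes were to be named, with SLBP, NPAT and CASP8AP2. Other names were chosen after their values were seen. Sequences are from GRCh37 with GENCODE release 44 lifted to it, and from RefSeq promoters. Plots were made in Python 3.11.15 with matplotlib 3.10.9. In the files the gene symbol of 108 transcripts had been turned into a date in at least 1 library and was taken from the others.

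Alternatives were upper quartile scaling, an equal sum of FPKM, no filter, a filter in every library, a pseudocount of 0.1, a replicate block, a robust variance, each replicate left out, single transcripts, either threshold alone, a ratio of mean log2 values and the ratio without the most abundant gene of each kind. Counting H2AFX with the clustered genes, leaving out HIST4H4 and adding the noncoding transcripts were chosen after the data were seen.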

Additional observations from a re-analysis of the deposited data

How the results depend on the processing

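The count of 0 histone genes past both thresholds held under upper quartile scaling, an equal sum of FPKM, no filter, a filter in every library, a pseudocount of 0.1, a robust variance, the noncoding transcripts added, single transcripts and the adjusted p alone. By fold change alone 1 of 55 histone genes passed, HIST4H4, against 1.07% of all genes. Leaving out a library gave 0 to 1 histone genes and 0 to 1 genes in all, the 1 being HIST4H4 without shCtrl replicate 1. In such fits the lone library was assumed to vary like the other group. The clustered median ranged from -0.15 to 0.10, the variant median from -0.11 to 0.07, the log2 ratio from -0.06 to 0.08 and the VIRMA log2 fold change from -0.80 to -0.26. An equal sum of FPKM moved the median of all genes to -0.05. Some log2 fold changes changed sign when a library was left out, and the cause was not tested: H2AFX (-0.70 to 0.17), H3F3A (-0.023 to 0.345), HIST1H1A (-1.20 to 0.26), HIST1H3A (-0.64 to 0.11), SLBP (-0.68 to 0.14), NPAT (-0.15 to 0.27), CASP8AP2 (-0.21 to 0.32), CHAF1A (-0.83 to 0.21), ASF1B (-0.69 to 0.34), CDC6 (-1.25 to 0.22), E2F1 (-1.15 to 0.13) and RRM1 (-0.13 to 0.68). With the replicate number as a block, 0 histone genes passed both thresholds and the VIRMA adjusted p was 0.419 (limma). Deviations of same-numbered libraries correlated at 0.323 over the genes tested and 0.252 over the histone genes, in 2 pairs whose number the labels do not explain. A count model was not run, since the files hold no counts. Depth is unknown, and low values such as those of HIST1H4D carry an unknown counting error.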

Other observations

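The histone genes with only noncoding transcripts were HIST2H2BA and HIST2H2BB. HIST2H2BA was at 2.06 and 3.85 FPKM in shCtrl and 3.49 and 3.76 in shKIAA1429. HIST2H2BB was at 6.89 and 3.63 FPKM in shCtrl and 6.68 and 7.06 in shKIAA1429. Both overlapped between the groups. They passed the filter and were tested among the other genes, not among the 55 histone genes. A noncoding transcript of HIST4H4 was at 1.26 and 1.03 FPKM in shCtrl and 0.233 and 1.24 in shKIAA1429, so it was not near 0 in shCtrl replicate 2, where the coding transcript was.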
